A study of Mus musculus with 20 samples.

Results

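Ifit1, Ifit3, Isg15, Irf7, Oasl2, Bst2, Ifi27, Ifitm3 and Usp18 are genes that type I interferon switches on, and their RNA was followed in the hippocampus and neocortex of mice that lack the microRNA miR-324. The 9 genes were taken as a named list, without a threshold on any measured value, out of 35580 genes with transcripts in the deposited tables, and all 9 passed the filter on low counts in each comparison. RNA-seq was undertaken in 20 samples, 5 each of WT hippocampus, miR-324-null hippocampus, WT neocortex and miR-324-null neocortex, from mice labelled C57BL/6J, 13.5 months old and, per the study, male. The miR-324-null mice carry a CRISPR/Cas9 deletion of the Mir324 locus in every cell of the body. Their founders were of mixed C57BL/6 and CBA/ca background and were crossed back to C57BL/6J, after which WT and miR-324-null mice were bred as separate lines, so that genotype and line cannot be told apart. No agent that induces interferon is named in the labels for any of the samples.

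The summed estimated counts per library ranged from 12752439 to 19617765 (median 14982602). The tissue labels held in the marker genes, since 10 hippocampal neuron markers summed to between 667 and 928 CPM (counts scaled to library size) in the hippocampus libraries and to between 157 and 316 CPM in the neocortex libraries, while 10 neocortical neuron markers summed to at most 689 CPM in hippocampus and at least 1273 CPM in neocortex. Messenger RNA libraries do not measure the mature microRNA, so no value here checks the genotype labels. In 3 libraries the 7 choroid plexus markers stood far above the rest, at 4550 CPM in WT hippocampus replicate 3, 3898 CPM in miR-324-null hippocampus replicate 5 and 808 CPM in miR-324-null neocortex replicate 2, against at most 141 CPM in the other libraries. Calls on the 9 genes are therefore given with and without these 3 libraries. In whole tissue, more cells of a type and more RNA per cell cannot be told apart.

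Type I interferons are secreted when a cell senses foreign or misplaced nucleic acid. They bind the receptor made of IFNAR1 and IFNAR2, whose kinases JAK1 and TYK2 start a signal that leads to the complex ISGF3, of which IRF9 is the DNA-binding part and which binds the interferon-stimulated response element (ISRE) near the start of many genes. In the brain, low tonic signalling and responses to infection, ageing and neurodegeneration have been described in microglia, astrocytes, neurons, endothelium and the choroid plexus. Among the 9 genes, Ifit1 and Ifit3 encode proteins with tetratricopeptide repeats that bind foreign RNA or partner with those that do, and Oasl2 encodes a relative of the oligoadenylate synthetases. Bst2 encodes tetherin, which holds budding virus at the cell surface, Ifitm3 encodes a membrane protein that hinders virus fusion in endosomes, and Ifi27 encodes a small hydrophobic protein. Isg15 encodes a ubiquitin-like protein that is joined to other proteins, Usp18 encodes the protease that takes it off and that also dampens signalling at IFNAR2, and Irf7 encodes the transcription factor that amplifies interferon production.

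The promoter sequences are shown because the ISRE is what the genes of this family are known for. Promoter windows of 300 bases, most of them upstream of the start, were taken from RefSeq (GRCm38.p6), which held 7 of the 9 genes, Ifi27 and Usp18 not being in the table. A core ISRE was searched on both strands as GAAA, any 2 bases and GAAA, and it was in the promoters of 5 of these 7 genes, against 1079 of the 27025 genes in the table (3.99%) and 32 of 55 other interferon-stimulated genes (58.2%). The matched bases are in capitals, each line is read 5′ to 3′ on the strand of the match, and distances count the start site as 0.
Ifit1 (chr19:34640785-34640794, minus strand, -104 to -95): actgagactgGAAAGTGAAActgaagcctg
Ifit1 (chr19:34640804-34640813, minus strand, -85 to -76): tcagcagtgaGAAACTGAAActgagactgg
Ifit3 (chr19:34583373-34583382, minus strand, -156 to -147): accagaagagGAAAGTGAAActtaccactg
Ifit3 (chr19:34583407-34583416, minus strand, -122 to -113): gaggaaagtaGAAACTGAAAcagacttaaa
Isg15 (chr4:156200881-156200890, minus strand, -72 to -63): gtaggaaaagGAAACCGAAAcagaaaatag
Bst2 (chr8:71537593-71537602, minus strand, -130 to -121): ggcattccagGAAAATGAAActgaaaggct
Both matches of Ifit1 and both of Ifit3 lay on the strand opposite to the gene, and those of Isg15 and Bst2 on the gene's own strand. In Isg15 a match from -78 to -69 and another from -66 to -57 overlap the printed one, and in Bst2 a match from -124 to -115 does. Ifitm3 held 2 matches just after its start, from 2 to 11 and from 19 to 28, on chromosome 7. The letters were not in the windows of Irf7 and Oasl2.

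The arms of miR-324 are shown because their loss is the treatment, with the seed (bases 2 to 8) in capitals, in RefSeq's GRCm38.p6.
mmu-miR-324-5p (chr11:70012060-70012082, plus strand): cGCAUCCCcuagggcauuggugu
mmu-miR-324-3p (chr11:70012095-70012114, plus strand): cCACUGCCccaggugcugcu
A match to the miR-324-5p seed (GGGATGC) was in the annotated 3′ untranslated regions of 0 of the 9 genes, against 7.84% of 21042 genes. The miR-324-3p match (GGCAGTG) was in those of 2 genes, Oasl2 and Usp18, against 13.5% of genes, in capitals in the lines below.
Oasl2 (chr5:114911495-114911501, plus strand): tcctatagccgGGCAGTGgtggtgcatgc
Usp18 (chr6:121270707-121270713, plus strand): ggtctttagatGGCAGTGcttaggtgaca
Neither gene was called by genotype in the tests given further on, which does not show that its level was unchanged. A seed match describes the letters only and is not a measured target. The study cites 2 reported forms of miR-324-3p with differing seeds, and only the printed sequence was searched here.

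The 9 genes spanned a wide range of levels. Compared per transcript length, as TPM (estimated counts scaled by transcript length and library total) over the 20 samples, Ifi27 was the highest at 80.4 ± 18.2 (SD, n = 20) and above 87.0% of the 14588 genes tested in both tissues. Ifitm3 followed at 27.1 ± 6.49 TPM, and these levels did not overlap with those of Ifi27 in any sample. Below them came Ifit3 at 9.55 ± 1.98 TPM, Bst2 at 6.73 ± 1.79, Isg15 at 4.12 ± 0.988, Oasl2 at 3.91 ± 0.872, Irf7 at 2.90 ± 1.08, Ifit1 at 1.58 ± 0.379 and Usp18 at 1.25 ± 0.481, and from Ifit3 down each gene overlapped its neighbour in this order. Usp18 was above only 6.38% of tested genes and Ifit1 above 8.51%, and the counts behind Usp18 were between 8 and 34 reads per library.

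The estimates for Ifi27, Oasl2 and Irf7 were divided most over several transcripts. For Ifi27 (chr12:103434211-103440239, plus strand, 9 transcripts, GENCODE M21 on GRCm38), 53.4 ± 7.50% of its TPM (SD, n = 20) was assigned to transcripts annotated as retaining an intron. For Oasl2 (chr5:114896936-114912234, plus strand, 9 transcripts), 57.1 ± 11.4% was assigned to 1 transcript annotated as a substrate of nonsense-mediated decay. The 13 transcripts of Irf7 (chr7:141262706-141266481, minus strand) gave a protein-coding share of 56.7 ± 24.6% that ran from 0% to 94.3% between libraries, so its TPM moved with the assignment as well as with its counts. Ifit1 (chr19:34640871-34650009, plus strand), Ifit3 (chr19:34583531-34588731, plus strand), Isg15 (chr4:156199424-156200818, minus strand) and Ifitm3 (chr7:141009586-141010770, minus strand) had 1 transcript each. Bst2 (chr8:71534255-71537456, minus strand) had 2 and Usp18 (chr6:121245906-121270917, plus strand) had 4.

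The levels below are CPM, scaled also by the trimmed mean of M-values (TMM), in order of replicates 1 to 5. Among the RNA-binding proteins, Ifit1 was at 2.28, 2.20, 2.404, 1.02 and 1.89 CPM in WT hippocampus. In miR-324-null hippocampus Ifit1 was at 1.48, 2.30, 3.20, 2.98 and 2.70 CPM. The 3 highest miR-324-null values lay above all WT values, while miR-324-null replicate 1 lay below 4 of the WT libraries, so that the groups overlapped. In WT neocortex Ifit1 was at 2.52, 2.39, 3.22, 1.98 and 2.88 CPM. The miR-324-null neocortex values of Ifit1 were 2.71, 2.63, 2.61, 2.58 and 2.12 CPM, all inside the WT range.

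Ifit3 had a coefficient of variation between 10.6% and 16.4% within the 4 groups. WT hippocampus held 7.23, 9.30, 7.93, 7.87 and 9.09 CPM of Ifit3, and miR-324-null hippocampus held 7.26, 5.97, 9.05, 8.35 and 6.81 CPM. WT neocortex held 12.7, 11.2, 11.4, 10.1 and 9.68 CPM of Ifit3, and all 5 of these lay above all 5 WT hippocampus values. The miR-324-null neocortex values of Ifit3 were 9.74, 9.90, 10.46, 10.2 and 7.76 CPM, of which replicate 5 fell within the range of miR-324-null hippocampus. Ifit3 shares 97.8% of bases over 1700 bases with its neighbour Ifit3b, so that reads of the pair can be divided between them by the estimation.

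For Oasl2, WT hippocampus held 4.30, 4.26, 5.39, 2.75 and 3.26 CPM. The miR-324-null hippocampus values of Oasl2 were 3.28, 2.98, 3.45, 3.21 and 3.98 CPM, inside the WT range. WT replicate 3 was the highest of the hippocampus libraries. WT neocortex held 3.26, 3.11, 5.72, 3.67 and 3.36 CPM of Oasl2, with replicate 3 again apart from the other 4. The miR-324-null neocortex values of Oasl2, 3.81, 3.13, 3.45, 3.63 and 3.96 CPM, lay between the lowest and the highest WT value.

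Of the membrane proteins, Bst2 was at 2.54, 2.45, 4.55, 1.81 and 2.58 CPM in WT hippocampus. In miR-324-null hippocampus Bst2 was at 3.04, 2.45, 2.4005, 2.46 and 3.84 CPM. The highest value of each group was the library with high choroid plexus markers. In WT neocortex Bst2 was at 2.11, 2.24, 1.58, 2.12 and 2.402 CPM. The miR-324-null neocortex values of Bst2 were 2.05, 2.07, 1.72, 1.70 and 2.44 CPM, and overlapped with those of WT.

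Ifitm3 was at 8.79, 6.59, 10.8, 7.79 and 8.71 CPM in WT hippocampus. In miR-324-null hippocampus Ifitm3 was at 7.57, 6.35, 6.71, 7.53 and 15.03 CPM. The last of these values, again in the library rich in choroid plexus markers, was the highest of all 20 samples. Neocortex varied less, with 6.66, 6.95, 8.03, 7.55 and 8.65 CPM of Ifitm3 in WT and 7.77, 7.73, 7.07, 6.32 and 8.20 CPM in miR-324-null mice.

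Ifi27 was at 26.4, 26.8, 37.2, 25.8 and 33.5 CPM in WT hippocampus. In miR-324-null hippocampus Ifi27 was at 38.9, 40.7, 22.8, 26.2 and 33.3 CPM, with replicates 1 and 2 above all WT values and replicate 3 below them. WT neocortex held 19.3, 26.5, 21.6, 25.6 and 22.4 CPM of Ifi27, and miR-324-null neocortex held 17.8, 24.9, 20.8, 20.3 and 19.2 CPM. The highest miR-324-null neocortex value was in replicate 2, the neocortex library with high choroid plexus markers, and it was the sole one above any miR-324-null hippocampus value.

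In the ISG15 system, Isg15 itself was at 1.24, 1.36, 1.95, 1.57 and 1.21 CPM in WT hippocampus. In miR-324-null hippocampus Isg15 was at 1.01, 1.38, 1.48, 1.64 and 1.75 CPM. The libraries with high choroid plexus markers were again the highest of both groups. WT neocortex held 1.496, 0.796, 2.11, 1.2003 and 1.44 CPM of Isg15, and miR-324-null neocortex held 1.25, 1.06, 1.54, 1.54 and 1.30 CPM. All 4 groups of Isg15 overlapped, at counts of 11 to 32 reads per library.

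For Usp18, WT hippocampus held 1.04, 1.74, 0.974, 1.18 and 1.29 CPM. The miR-324-null hippocampus values of Usp18 were 1.17, 0.612, 1.11, 0.596 and 0.674 CPM. Replicates 2, 4 and 5 of the miR-324-null group lay below all WT values, and the other replicates lay among them. WT neocortex held 0.680, 1.45, 1.25, 0.777 and 1.30 CPM of Usp18. The miR-324-null neocortex values of Usp18 were 1.10, 1.26, 0.535, 1.87 and 1.09 CPM, with the lowest and the highest of all neocortex values in the same group.

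Irf7, the transcription factor, was at 1.95, 1.87, 2.66, 1.65 and 2.20 CPM in WT hippocampus and at 2.11, 2.37, 2.4005, 2.24 and 1.95 CPM in miR-324-null hippocampus. WT neocortex held 1.97, 2.17, 3.29, 1.84 and 1.72 CPM of Irf7, with replicate 3 apart from the other 4. The miR-324-null neocortex values of Irf7 were 2.86, 2.48, 2.32, 2.14 and 2.39 CPM, within the range of WT.

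**Figure D1:**
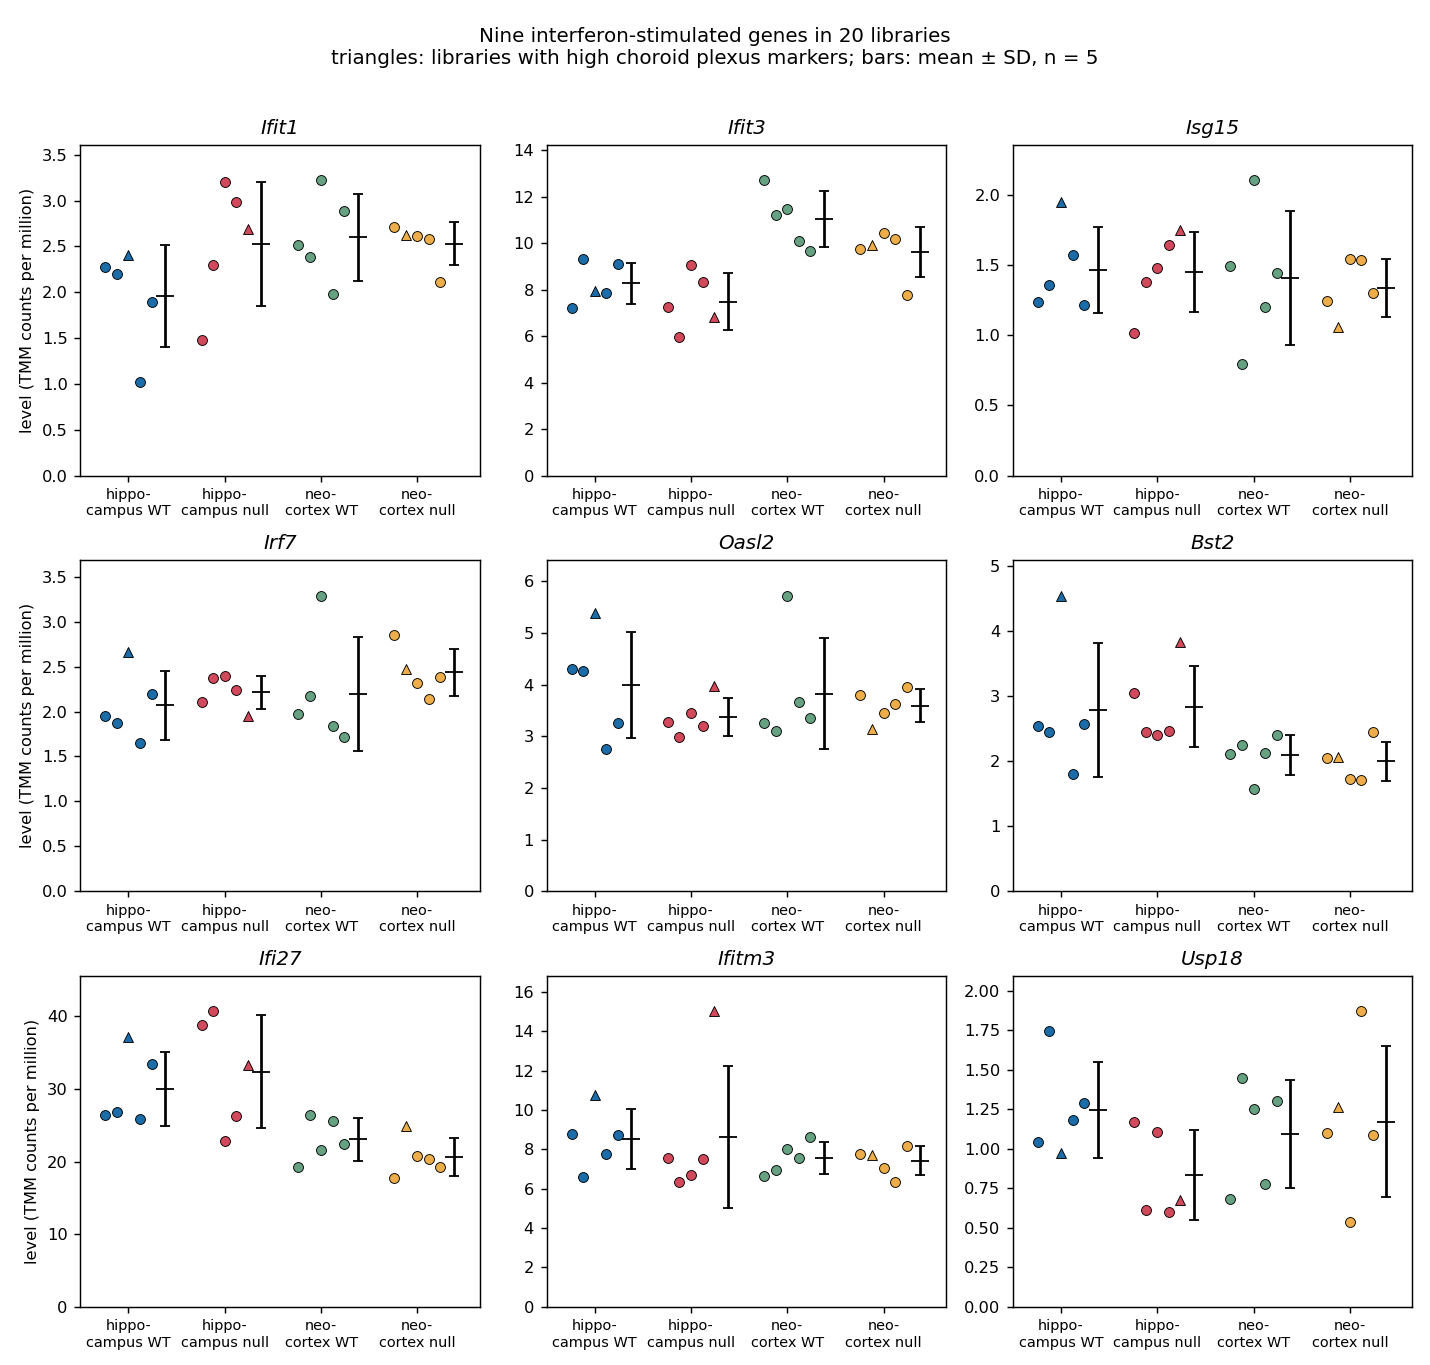
Level of each of the 9 genes in TMM-scaled CPM (y axes, from 0) in each library of the 4 groups (x axes); points are libraries, triangles the 3 libraries with high choroid plexus markers, and bars the mean ± SD of 5 libraries. The genotypes overlap in each panel, WT neocortex sits above WT hippocampus for Ifit3, and the Ifitm3 value of 15.03 CPM in miR-324-null hippocampus stands alone.

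Loss of miR-324 was not accompanied by a called change in any of the 9 genes. In hippocampus 0 of 9 genes were called by edgeR's quasi-likelihood test at an adjusted p of at most 0.05, beside 17 of 14796 genes tested (0.115%), and in neocortex 0 of 9 beside 47 of 14930 (0.315%). None of the 9 had an unadjusted p of at most 0.05 in either tissue, where 11.1% of all genes tested in hippocampus and 12.2% in neocortex did. DESeq2 and limma also called 0 of 9. The WT and miR-324-null ranges overlapped for all 9 genes in both tissues, where 2.55% of all genes in hippocampus and 2.3% in neocortex had ranges that did not. The median log2 fold change of the 9 genes was 0.020 in hippocampus and -0.055 in neocortex, beside medians of 0.0012 and 0.0046 over all genes tested. Without the 3 libraries with high choroid plexus markers the counts were again 0 of 9 in both tissues (all genes, 0.129% in hippocampus and 0.213% in neocortex). Ifi27 in neocortex then had an unadjusted p of at most 0.05 (log2 fold change -0.23, edgeR adjusted p = 0.401), as did 11% of all genes there. The hippocampal estimate for Ifitm3 then turned from 0.020 to -0.18 (edgeR adjusted p = 0.615).

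The hippocampal gene nearest to a call was Usp18, with a mean of 0.832 ± 0.283 CPM (SD, n = 5) in miR-324-null and 1.25 ± 0.304 CPM in WT hippocampus. Its log2 fold change was -0.57 ± 0.27 (SE; 95% confidence interval -1.16 to 0.016, edgeR adjusted p = 0.460), and it rested on 8 to 18 reads per miR-324-null library. With transcript-length offsets the Usp18 estimate was -0.36, and with limma on log2(TPM + 0.1) and log2(TPM + 1) -0.34 and -0.18. These settings also depend on how the few reads were assigned to transcripts. The added 1 is near the group means of 1.04 TPM (miR-324-null) and 1.29 TPM (WT), and by itself makes the estimate smaller. In neocortex the estimate for Usp18 was 0.12 ± 0.32 (-0.57 to 0.80, edgeR adjusted p = 0.928). Ifit1 had the largest positive estimate in hippocampus, 0.37 ± 0.25 (-0.18 to 0.91, edgeR adjusted p = 0.631). Oasl2 was estimated there at -0.24 ± 0.18, and at -0.11 without WT replicate 3 and -0.41 with transcript-length offsets. Ifi27 was estimated at 0.11 ± 0.16, at 0.19 without the libraries with high choroid plexus markers and between 0.014 (without miR-324-null replicate 2) and 0.22 (without miR-324-null replicate 3) without single libraries. The smallest adjusted p in neocortex was that of Ifit3, 9.61 ± 1.07 CPM in miR-324-null and 11.03 ± 1.199 CPM in WT samples, a log2 fold change of -0.19 ± 0.10 (-0.42 to 0.032, edgeR adjusted p = 0.491). In hippocampus Ifit3 was estimated at -0.14 ± 0.13. Ifi27 in neocortex was estimated at -0.15 ± 0.10 and Irf7 at 0.15 ± 0.20. Over the 9 genes the 95% confidence intervals reached from -1.16 to 0.91 in hippocampus and from -0.60 to 0.80 in neocortex.

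Whether the effect of genotype differed between the tissues was tested as an interaction over all 20 samples. It was called for 0 of the 9 genes, beside 3 of 15391 genes tested (0.0195%, and 0.00649% without the libraries with high choroid plexus markers, again with 0 of 9). An unadjusted p of at most 0.05 was found for 0 of 9, beside 5.57% of all genes. The estimates, hippocampus minus neocortex, ran from -0.68 ± 0.43 for Usp18 to 0.41 ± 0.30 for Ifit1, with edgeR adjusted p values of at least 0.930.

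Between tissues, in contrast, 2 of the 9 genes differed in WT mice, Ifit3 downwards and Ifi27 upwards in hippocampus. This share has to be read beside 36.1% of all 14894 genes called between the WT tissues, 18.1% higher and 18.0% lower in hippocampus. Ifit3 averaged 8.28 ± 0.880 CPM in WT hippocampus and 11.03 ± 1.199 CPM in WT neocortex, a log2 difference of -0.41 ± 0.10 (SE; 95% confidence interval -0.63 to -0.19, edgeR adjusted p = 0.00582), or 0.751 of the neocortex level. It was the sole one of the 9 genes whose WT groups did not overlap, as was the case for 26.5% of all genes. Its copy Ifit3b differed alike, at 4.30 ± 0.588 against 5.71 ± 0.693 CPM (log2 difference -0.41 ± 0.13, edgeR adjusted p = 0.0254), a call that was lost without WT hippocampus replicate 3 (-0.33, edgeR adjusted p = 0.0635). Ifit3 and Ifit3b summed gave -0.41 (edgeR adjusted p = 0.00135). Ifi27 averaged 29.9 ± 5.10 CPM in WT hippocampus and 23.1 ± 2.96 CPM in WT neocortex, a log2 difference of 0.38 ± 0.12 (0.13 to 0.63, edgeR adjusted p = 0.0212). For Ifi27, 3 of 5 hippocampus libraries lay above all neocortex libraries, and the call was lost with limma on TPM and in a fit of all 20 samples. Without WT hippocampus replicate 3, both genes were still called (32.2% of all genes; Ifit3 -0.39, edgeR adjusted p = 0.0165, and Ifi27 0.29, edgeR adjusted p = 0.0447).

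In miR-324-null mice 1 of the 9 genes was called between tissues, beside 27.4% of 15033 genes (13.8% higher and 13.6% lower in hippocampus). This was Ifi27, at 32.4 ± 7.76 CPM in hippocampus and 20.6 ± 2.65 CPM in neocortex, a log2 difference of 0.66 ± 0.15 (0.33 to 0.99, edgeR adjusted p = 0.00642). Without the libraries with high choroid plexus markers it was 0.72 (edgeR adjusted p = 0.0132), and 1 of 9 genes was called beside 21.0% of all genes. None of the 9 had miR-324-null tissue groups free of overlap, as 21.1% of all genes did. Ifit3 was estimated at -0.35 ± 0.13 (edgeR adjusted p = 0.0588), which became -0.43 (edgeR adjusted p = 0.0269) without miR-324-null hippocampus replicate 3, -0.42 (edgeR adjusted p = 0.0241) without miR-324-null neocortex replicate 5 and -0.34 (edgeR adjusted p = 0.0173) when summed with Ifit3b. DESeq2's Wald test (adjusted p = 0.0461) and an edgeR fit of all 20 samples (adjusted p = 0.0208) called Ifit3 as well. The difference between the tissue comparisons of the 2 genotypes is the interaction already given, which was not called for Ifit3 or Ifi27.

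Tissue estimates of Bst2, Ifitm3 and Isg15, none of them called, moved when the libraries with high choroid plexus markers were left out. Bst2 was estimated at 0.42 ± 0.23 in WT mice (edgeR adjusted p = 0.183) and at 0.18 (edgeR adjusted p = 0.504) without WT hippocampus replicate 3. In miR-324-null mice Bst2 was at 0.51 ± 0.19 (edgeR adjusted p = 0.0573), at 0.39 (edgeR adjusted p = 0.184) without the libraries with high choroid plexus markers, and at 0.60 (edgeR adjusted p = 0.0400) without miR-324-null neocortex replicate 5. Ifitm3 was at 0.17 ± 0.13 in WT mice and at 0.081 without WT hippocampus replicate 3. In miR-324-null mice Ifitm3 turned from 0.23 ± 0.21 (edgeR adjusted p = 0.465) to -0.052 (edgeR adjusted p = 0.805) when these libraries were left out, and Isg15 from 0.13 ± 0.20 to -0.024. In the 4 other miR-324-null hippocampus libraries Ifitm3 averaged 7.04 ± 0.606 CPM, against 8.64 ± 3.61 CPM over all 5. The other genes were not called between tissues in either genotype, with Ifit1 at -0.40 ± 0.22 (edgeR adjusted p = 0.191) in WT and Usp18 at -0.48 ± 0.33 (edgeR adjusted p = 0.313) in miR-324-null mice.

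**Figure D2:**
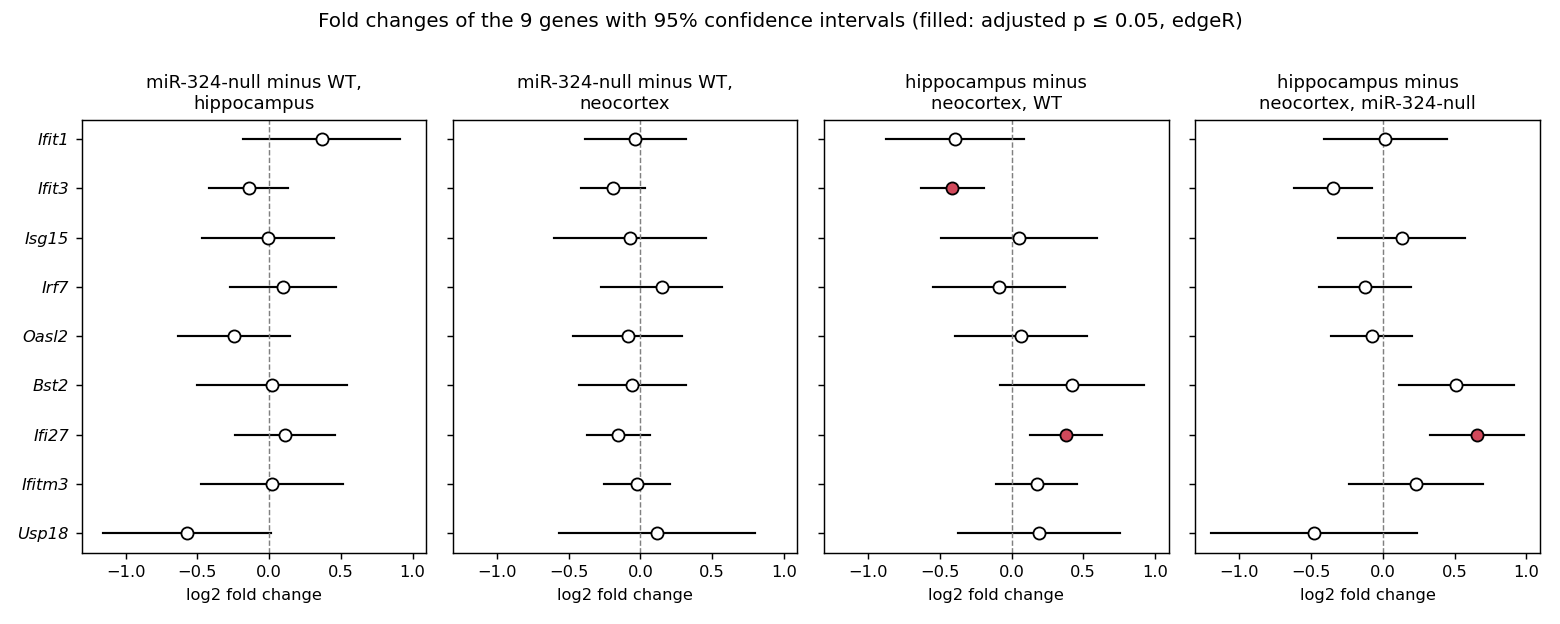
Log2 fold changes (x axes) of the 9 genes (y axis) for genotype in each tissue and for tissue in each genotype, with 95% confidence intervals; filled points have an edgeR adjusted p of at most 0.05. The genotype panels hold no filled point, and the tissue panels hold Ifit3 at -0.41 and Ifi27 at 0.38 in WT and Ifi27 at 0.66 in miR-324-null mice.

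Read library by library, several of the genes were high or low together. WT hippocampus replicate 3 was the highest of its group for 7 of the 9 genes, all but Ifit3 and Usp18, and it was the lowest for Usp18. WT hippocampus replicate 4 was the lowest for 5 genes, Ifit1, Irf7, Oasl2, Bst2 and Ifi27. In miR-324-null hippocampus, replicate 5 was the highest for Isg15, Oasl2, Bst2 and Ifitm3 and the lowest for Irf7. It was above the group mean of log2 CPM for 6 of the 9 genes. WT replicate 3 and miR-324-null replicate 5 had the high choroid plexus sums, and the part of these markers in the result was not tested. Hippocampus libraries without a high sum were above their group mean for 6 genes as well. These were WT replicate 5 (49.6 CPM) and miR-324-null replicate 3 (52.6 CPM). The latter was the highest for Ifit1, Ifit3 and Irf7 and the lowest for Bst2 and Ifi27. The remaining library with a high sum, miR-324-null neocortex replicate 2 at 808 CPM, was the highest of its group for Ifi27 alone. It was the lowest for Isg15 and Oasl2, and above the group mean of log2 CPM for 7 of the 9 genes. In WT hippocampus replicate 3 and miR-324-null hippocampus replicate 5 other marker sums were high too. The 8 meningeal fibroblast markers summed to 309 CPM in WT hippocampus replicate 3 (next 152) and to 218 CPM in miR-324-null hippocampus replicate 5 (next 171), and the 12 brain endothelium markers reached 492 CPM in the latter (next 388). The 6 red blood cell markers reached 1387 CPM in WT hippocampus replicate 3 (next 640). Over all libraries, 9 pericyte and smooth muscle markers summed to between 274 and 369 CPM, the highest again in miR-324-null hippocampus replicate 5, and 8 astrocyte markers to between 3638 and 5199 CPM. In neocortex the hippocampal neuron markers summed to between 160 and 197 CPM in WT libraries, to between 263 and 316 CPM in miR-324-null replicates 1 to 4 and to 157 CPM in replicate 5. Neocortical neuron markers there summed to between 1537 and 1750 CPM in WT and between 1273 and 1697 CPM in miR-324-null libraries. In neocortex 8 striatal neuron markers summed to between 156 and 439 CPM in WT and between 263 and 731 CPM in miR-324-null libraries, and the part of these markers in the genotype comparison was not tested.

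WT neocortex replicate 3 was likewise the highest of its group for Ifit1, Isg15, Irf7 and Oasl2. Its choroid plexus sum was 40.1 CPM, within the range of the other WT neocortex libraries (16.7 to 54.3 CPM), and Bst2 was at its lowest there, 1.58 CPM. Microglia markers (12 genes) summed to between 449 and 552 CPM in WT neocortex and peaked in replicate 5, not in replicate 3. Leukocyte markers (15 genes) summed to between 10.2 and 25.1 CPM over all libraries, with Ly6g at 0 in 3 of the 4 groups. Within hippocampus they were highest in the libraries with high choroid plexus markers, at 22.0 CPM in WT replicate 3 (next 18.4) and 21.5 CPM in miR-324-null replicate 5 (next 15.9). Across the 20 libraries, each set relative to its group, Oasl2 followed the mean of the 9 standardised genes most closely (Pearson's r = 0.83, a mean that includes Oasl2 itself). Ifit1 (0.68) and Irf7 (0.67) came next, and Usp18 (0.13), Ifit3 (0.13) and Ifi27 (0.16) followed it least. Each of these genes is likewise part of the mean, which by itself raises its r. These correlations are descriptions over 20 libraries that differ in depth and tissue makeup.

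**Figure D3:**
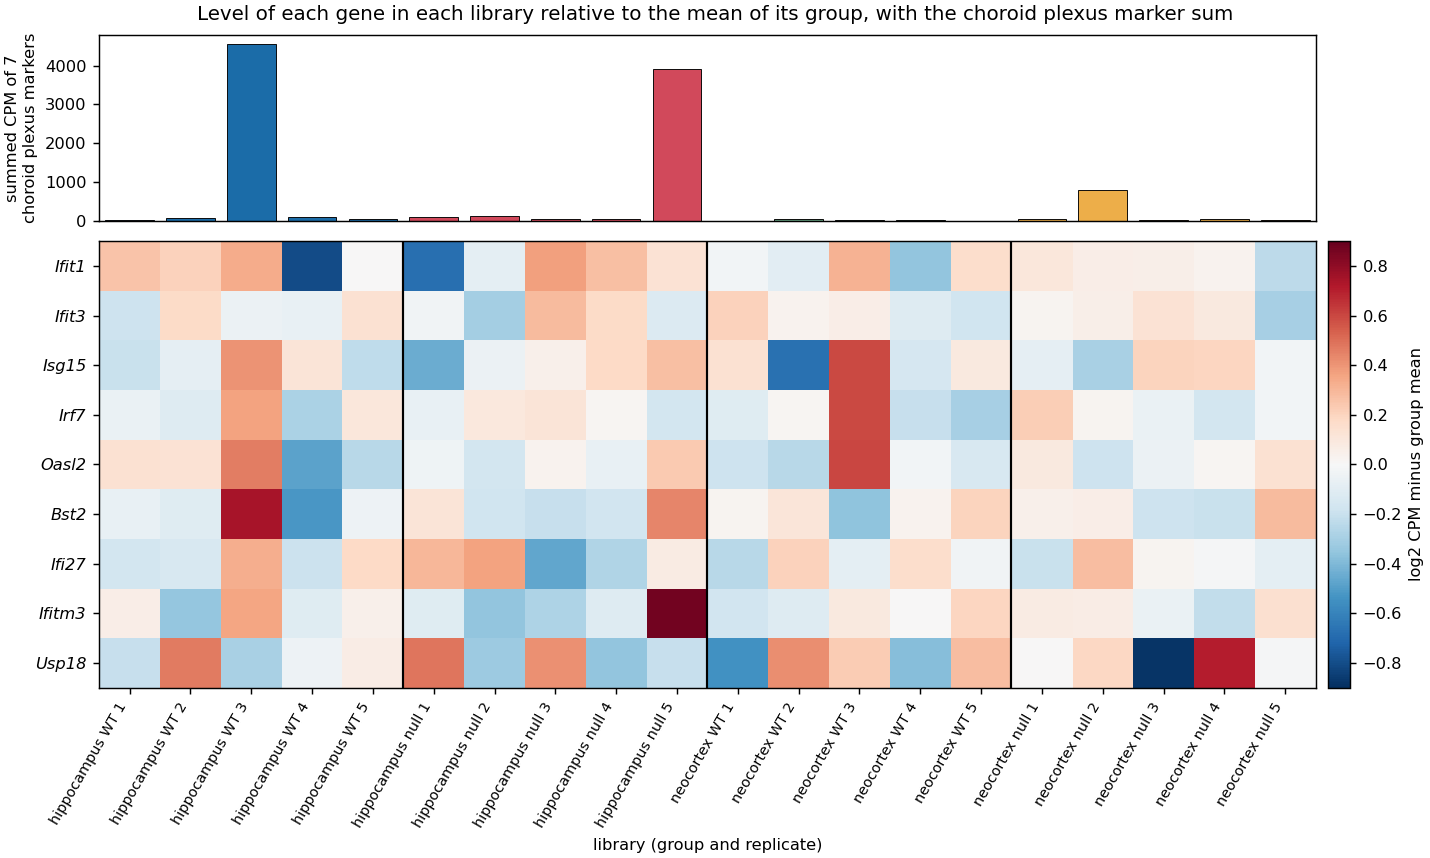
Upper panel, summed CPM of 7 choroid plexus markers in each library (y axis from 0, coloured by group); lower panel, log2 CPM of each gene (rows) minus the mean of its group in each library (columns, colour scale in log2 units). WT hippocampus replicate 3 and miR-324-null hippocampus replicate 5, with sums of 4550 and 3898 CPM, lie above their group mean for 7 and 6 genes. With a sum of 52.6 CPM, miR-324-null hippocampus replicate 3 does so for 6 genes too. WT neocortex replicate 3 is red for Isg15, Irf7 and Oasl2 with a sum of 40.1 CPM.

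The genes upstream of the 9 were examined next. Of 21 genes for interferons themselves, 16 had a rounded count of 0 in all 20 samples, Ifnb1 among them, and 20 had at most 3 reads in each sample. The exception was Ifnz, with up to 5 reads. No difference between groups was detectable for the ligands at this depth. The receptor and its signal transducers were well expressed, for example Ifnar1 at 37.8 ± 1.79 CPM, Ifnar2 at 16.1 ± 0.622 CPM, Stat2 at 28.7 ± 4.61 CPM and Irf9 at 10.8 ± 1.84 CPM (SD, n = 5) in WT neocortex.

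By genotype, no gene of these lists was called by edgeR in either tissue. Of 16 receptors and transducers 14 were tested in each tissue, with 3 at an unadjusted p of at most 0.05 in hippocampus and 2 in neocortex, where 11.1% and 12.2% of all genes tested had such a p. Irf9, the DNA-binding part of ISGF3, was at 8.92 ± 1.06 CPM in miR-324-null and 10.8 ± 1.46 CPM in WT hippocampus (log2 fold change -0.27 ± 0.12, edgeR adjusted p = 0.410), and at 8.99 ± 1.10 and 10.8 ± 1.84 CPM in neocortex (-0.26 ± 0.13, edgeR adjusted p = 0.440). Stat2, another part of ISGF3, was at 27.0 ± 1.75 and 26.7 ± 1.53 CPM in miR-324-null and WT hippocampus, within the spread between replicates. Of 23 nucleic acid sensors and adaptors 21 were tested and 0 called (3 unadjusted in hippocampus and 0 in neocortex). Of 73 other interferon-stimulated genes, 54 passed the filter in hippocampus and 59 in neocortex, with 0 called (4 and 7 unadjusted) and medians of -0.037 and -0.11. In hippocampus 33 of these 54 estimates and in neocortex 43 of these 59 were below 0, beside medians of 0.0012 and 0.0046 over all genes tested. Neither genes passing the filter nor their medians carry a test here.

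Between tissues the same lists held called genes in both directions, to be read beside 18.1% of all genes higher and 18.0% lower in WT hippocampus and 13.8% and 13.6% in miR-324-null hippocampus. In WT mice 2 of 14 receptors and transducers were higher and 3 lower in hippocampus, 0 of 21 sensors were higher and 3 lower, and 3 of 57 other interferon-stimulated genes were higher and 9 lower, with a median of -0.14. In miR-324-null mice the counts were 2 and 2 of 14, 1 and 4 of 21, and 1 and 7 of 55, with a median of -0.19 for the last. Ifngr2, a chain of the interferon gamma receptor, was higher in hippocampus by 0.89 in WT (47.2 ± 2.26 against 25.5 CPM, edgeR adjusted p = 6.11e-06) and by 0.75 in miR-324-null mice (edgeR adjusted p = 2.18e-05). Ifi203, of the family of interferon-inducible DNA-binding proteins, was higher by 1.46 in WT (5.89 against 2.14 CPM, edgeR adjusted p = 2.59e-06) and by 1.58 in miR-324-null mice (edgeR adjusted p = 1.02e-04). Znfx1, an RNA helicase, was lower in hippocampus (53.5 against 93.2 CPM in WT, log2 difference -0.80, edgeR adjusted p = 5.95e-08; -0.91 in miR-324-null mice). Jak2 (-0.44 in WT), Socs3, the feedback inhibitor of cytokine signalling (-1.38 in miR-324-null), and Shisa5 (-0.32 in miR-324-null) were called lower too. The 6 genes named in this paragraph were called in both genotypes, also without the libraries with high choroid plexus markers.

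**Figure D4:**
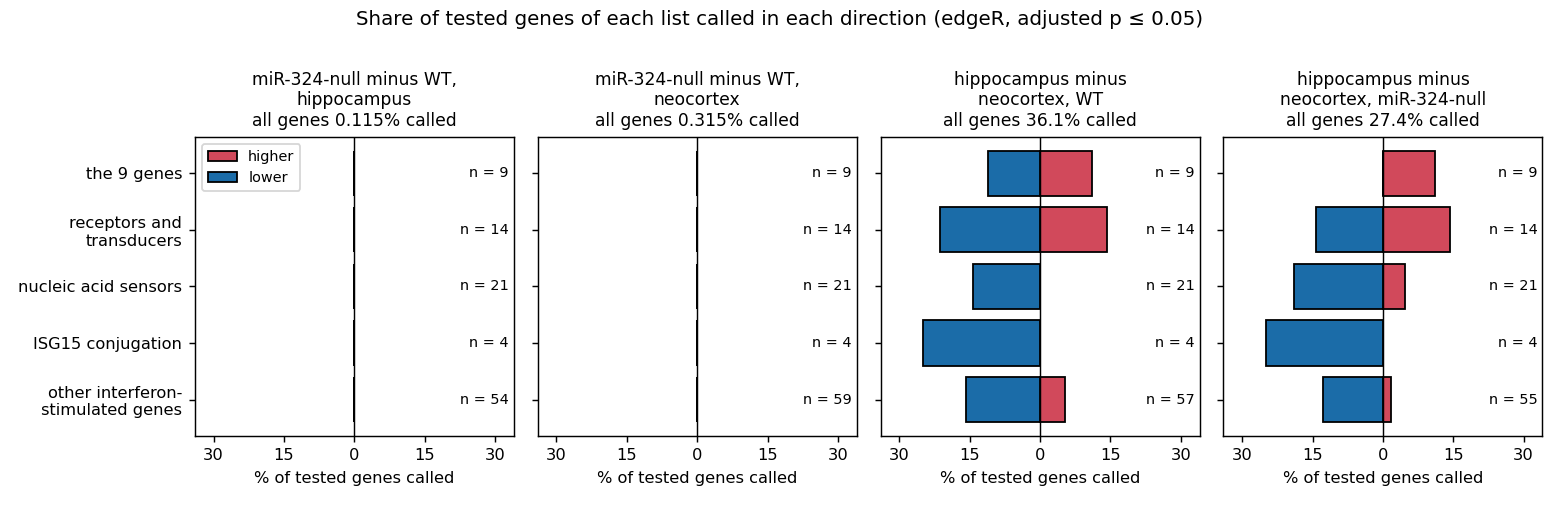
Share of the tested genes of each list (rows, n tested beside each) called higher (right, red) or lower (left, blue) by edgeR, for genotype in each tissue and for tissue in each genotype; x axes are percent of tested genes, and the share over all genes stands above each panel. No list has a called gene by genotype, and by tissue 9 of 57 other interferon-stimulated genes were lower in WT hippocampus, beside 18.0% of all genes.

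Of 4 genes of ISG15 conjugation, 1 was called between the tissues in each genotype. This has to be read beside 36.1% of all genes called in WT and 27.4% in miR-324-null mice. ISG15 is activated by UBA7, handed to UBE2L6 and joined to its targets by a ligase, which in mice is HERC6. Herc6 was at 4.98 ± 0.510 CPM in WT hippocampus and 24.6 ± 1.62 CPM in WT neocortex (SD, n = 5), a log2 difference of -2.30 ± 0.083 (edgeR adjusted p = 6.39e-10). The libraries ran from 4.49 to 5.72 CPM in hippocampus and from 23.2 to 27.2 CPM in neocortex. In miR-324-null mice Herc6 was at 5.33 ± 0.572 CPM in hippocampus and 20.8 ± 2.80 CPM in neocortex (log2 difference -1.95, edgeR adjusted p = 4.17e-07). By contrast Isg15 itself differed by 0.053 ± 0.25 between the WT tissues (-0.49 to 0.60, edgeR adjusted p = 0.897). Uba7, Ube2l6 and Trim25 make up the rest of that list, named here although the rule for naming genes did not reach them, and none was called between tissues or by genotype. By genotype, 1 of the 4 genes had an unadjusted p of at most 0.05 in hippocampus and 1 in neocortex, beside 11.1% and 12.2% of all genes. For the interaction it was 1 of 4, beside 5.57%. Uba7 averaged between 4.08 and 4.27 CPM over the 4 groups, Ube2l6 between 8.29 and 9.19 CPM and Trim25 between 6.74 and 8.71 CPM. Trim25 was at 6.74 ± 0.372 CPM in miR-324-null and 8.71 ± 1.78 CPM in WT hippocampus.

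**Figure D5:**
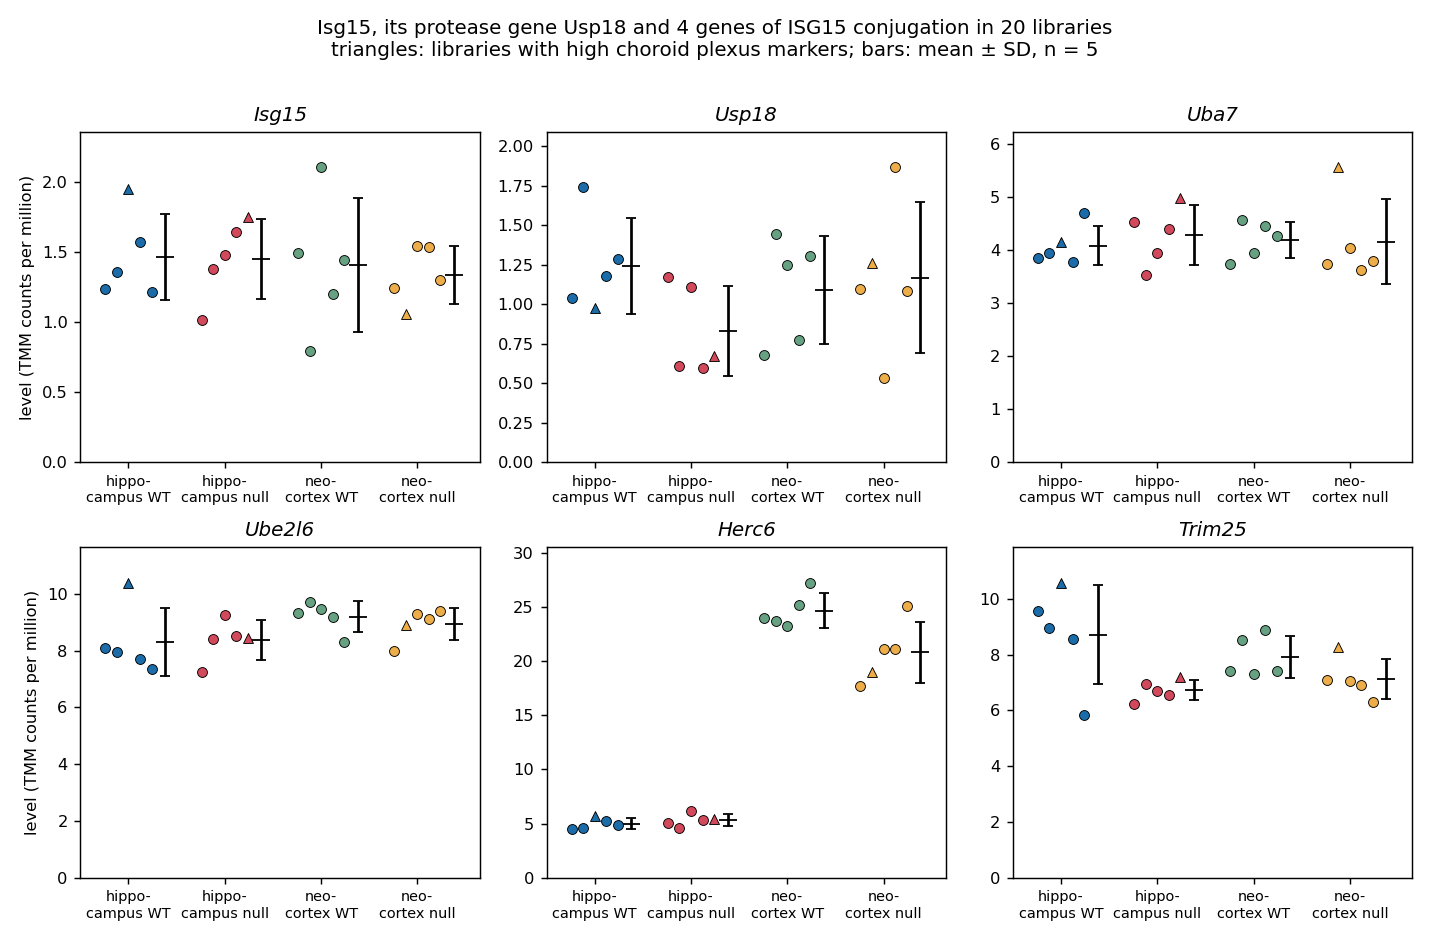
TMM-scaled CPM (y axes, from 0) of Isg15, its protease gene Usp18 and 4 genes of ISG15 conjugation in each library of the 4 groups (x axes); points are libraries, triangles the 3 libraries with high choroid plexus markers, bars the mean ± SD of 5. Herc6 lies between 17.7 and 27.2 CPM in neocortex and between 4.49 and 6.16 CPM in hippocampus, while the tissues of each genotype overlap for the other 5 genes.

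Outside the family, the 10 genes whose levels over the 20 libraries, centred within group, were most like the mean of the 9 standardised genes were Cd59a (Pearson's r = 0.83), Pla2g5 (0.83), Rnf40 (0.79), Pcolce2 (0.79), Dsg2 (0.78), Slc4a2 (0.77), Cd55 (0.76), Lims2 (0.76), Gm19935 (0.75) and Coch (0.74). Leaving out 1 library at a time, the r of these genes was lowest without WT hippocampus replicate 3 for 8 of the 10 and without WT hippocampus replicate 4 for Rnf40 and Lims2. Without the 3 libraries with high choroid plexus markers their r fell to between 0.43 and 0.72, and 1 of the 10 stayed among the first 10. The likeness is a description over libraries that differ in depth and tissue makeup, with no p.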

How the data were processed

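RNA-seq was analysed in 20 samples, 5 per tissue and genotype, grouped by GEO's labels. The series' design names 5 mice per genotype for hippocampus. For neocortex the labels do not say whether replicates were separate mice, and p values then measure the spread between these samples only. Per the study, total RNA was treated to remove DNA, libraries were prepared with a stranded mRNA kit and sequenced on a NextSeq 500, and the authors quantified reads with kallisto against the mouse GRCm38 transcriptome. The submitters' processing notes list kallisto and DESeq2 and the build GRCh38, while the transcript identifiers are those of mouse. The versions of these tools and the use of strand are not given in the sources used here. The files deposited by the authors hold, per transcript, estimated counts and TPM. Of 115270 transcripts, 113580 matched GENCODE M21 by identifier and were summed to 35580 genes. The 1690 others held at most 0.556% of a sample's counts and were left out.

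Gene sums were rounded to whole numbers and tested with edgeR 4.0.16 (filterByExpr, TMM, quasi-likelihood test, Benjamini-Hochberg adjustment over all genes tested, called at an adjusted p of at most 0.05) in R 4.3.3. Each comparison was fitted on its 10 samples and the interaction on all 20. Alternatives were DESeq2 size factors, no filter, DESeq2 1.42.0, transcript-length offsets as in the study's tximport step, limma 3.58.1 on log2(TPM + 0.1) and log2(TPM + 1), a replicate block, 1 fit of all samples, each replicate left out and, chosen after seeing the data, the 3 libraries with high choroid plexus markers left out and Ifit3 summed with Ifit3b. The scripts were tested on simulated data. BLAST 2.17.0 was used to find near-identical transcripts (at least 95% over 100 bases): Ifit3 and Ifit3b, Isg15 and AC151275.1, and Usp18 and Gm44148, which lies on the opposite strand, as does Phrf1 over 45 bases of Irf7. Reads of such pairs may not be told apart.

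The 9 genes and all gene lists were chosen with earlier results of these data known. Named beside the 9 were Stat2, Irf9, Ifnar1, Ifnar2, Ifnb1, up to 6 called genes of the interferon lists per comparison by smallest p, and the 10 genes most like the 9. A few others chosen in the same way were left out of the text. Marker lists for pericytes, astrocytes and striatal neurons were summed as well.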

Additional observations from a re-analysis of the deposited data

Results flagged for a closer look

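Of 80 sets of 5 values examined, 36 of them for the 9 genes and the rest for all 11 marker lists, a single library lay apart from the other 4 of its group (Dixon's test at the 95% level, critical ratio 0.71) in 13, of which 6 concerned the 9 genes. Chance alone flags about 1 in 20 such groups. Ifit1 was low at 2.12 CPM and Ifit3 low at 7.76 CPM in miR-324-null neocortex replicate 5. Irf7 (3.29 CPM) and Oasl2 (5.72 CPM) were high in WT neocortex replicate 3. Bst2 was high at 4.55 CPM in WT hippocampus replicate 3, and Ifitm3 at 15.03 CPM in miR-324-null hippocampus replicate 5. Among the marker sums, choroid plexus markers stood apart at 4550 CPM in WT hippocampus replicate 3, at 3898 CPM in miR-324-null hippocampus replicate 5 and at 808.3 CPM in miR-324-null neocortex replicate 2. In miR-324-null hippocampus replicate 5, brain endothelium markers stood apart at 492 CPM and pericyte and smooth muscle markers at 368.9 CPM. Red blood cell markers stood apart at 1387 CPM in WT hippocampus replicate 3. Striatal neuron markers stood apart at 439 CPM in WT neocortex replicate 2.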

How the results depend on the processing

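By genotype and for the interaction, 0 of the 9 genes were called under each alternative run and each left-out replicate. Between WT tissues 2 genes were called under 8 of 11 alternatives and without each replicate (2 to 2), and 1 with limma on log2(TPM + 0.1), with limma on log2(TPM + 1) and in 1 edgeR fit of all 20 samples, where Ifi27 had adjusted p values of 0.0608, 0.0605 and 0.0518. Between miR-324-null tissues the count was 1 in the reported fit, 2 with DESeq2's Wald test, in the fit of all 20 samples and with Ifit3 and Ifit3b summed (Ifit3 added in each), and from 1 to 3 leaving out replicates. Estimates that changed sign were those of genes not called. In neocortex by genotype, Irf7 was -0.028 (edgeR) and -0.030 (DESeq2) with transcript-length offsets, and Usp18 was -0.00033 with the edgeR offset, -0.036 with limma on log2(TPM + 0.1) and from -0.12 to 0.30 without single replicates. Between WT tissues Usp18 was -0.0038 with limma on log2(TPM + 1). Between miR-324-null tissues Irf7 was 0.22 and 0.21 with the edgeR and DESeq2 offsets and 0.11 and 0.094 with limma on log2(TPM + 0.1) and log2(TPM + 1), Isg15 was -0.024 and Ifitm3 -0.052 without the choroid-rich libraries, and Ifitm3 ran from -0.066 to 0.32 without single replicates. The cause was not tested.

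The labels give the 4 groups the same replicate numbers. Deviations of same-numbered samples correlated at between -0.21 and 0.19 and passed 0.1 in all pairs of no comparison, and a sample correlated best with its own number in 2 of 5 cases between WT tissues, 3 of 5 between miR-324-null tissues and 1 of 5 in each tissue between genotypes, so the numbers were not taken to pair the samples and the planned correlation of the tissues per mouse was not run. With the replicate number as a block in edgeR, 3 genes were called between miR-324-null tissues, Ifi27, Ifit3 (adjusted p = 0.0413) and Bst2 (adjusted p = 0.0462), and the counts for the other comparisons stayed at 0, 0, 2 and 0. Over all genes the block called 4 in hippocampus by genotype instead of 17 and 30 in neocortex instead of 47.

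Counts over all genes by genotype moved more than those of the 9 genes, from 4 to 139 (DESeq2) in hippocampus and from 22 (limma on log2(TPM + 0.1)) to 240 (DESeq2) in neocortex, where 566 were called without miR-324-null replicate 5. For the interaction they ran from 0 to 11 and to 20 without that replicate. Limma on log2(TPM + 0.1) called 16 higher and 6 lower in neocortex by genotype, beside 24 and 23 in the reported fit, and 1094 higher and 2096 lower between miR-324-null tissues, beside 2076 and 2049. Of the 10 genes most like the 9, between 3 and 10 remained among the first 10 when 1 library was left out. Depth limits Usp18, Isg15, Ifit1 and Irf7 most, at 8 to 52 reads per library.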
